A study of Drosophila melanogaster with 9 samples.

Results

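The comparison described here set midguts of adult virgin Drosophila melanogaster females mutant for transformer (tra) against midguts of control females, across all genes. Libraries were chosen by their labels alone: 3 libraries labelled as tra mutant females and 3 labelled as wild-type control females, 6 of the 9 libraries of the series. The remaining 3 libraries, from tra mutant females given back the female form of tra in escargot-positive gut progenitors, entered the model only to estimate the spread. Each library was made from poly(A) RNA of a pool of 30 dissected midguts, and both groups had the w1118 strain background and a stated age of 15 days. Flies of both groups were kept at 18 °C for 3 days and moved to 29 °C for 10 days, the regime used to switch on the transgene of the third group. The labels name neither the tra allele nor its carrier chromosome, and they name the driver and the transgene for the third group only. The mutation was not limited to the gut, so effects inside the gut, effects of other organs and effects of development cannot be told apart. Separate cultures or crosses for the replicates are not stated; p-values therefore reflect the spread among these libraries, part of which may be technical.

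tra encodes a splicing regulator of somatic sex in flies. Its functional protein is made only in females, where Sex-lethal (Sxl) directs the splicing of its transcript, and it in turn directs female splicing of doublesex (dsx) and blocks the male form of fruitless (fru). Female flies that lack tra develop as males in the soma while keeping the female set of sex chromosomes. The adult midgut is an epithelium of absorptive and enzyme-secreting enterocytes, hormone-secreting enteroendocrine cells and stem cells, wrapped in visceral muscle and served by tracheae and nerves, and it is larger in females than in males.

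Gene counts per library ranged from 93765308 to 105248239. Levels are given as CPM, counts per 1000000 gene counts after TMM scaling, and log2 fold changes, written in brackets after the levels, are mutant minus control ± standard error (SE). In bulk tissue, fewer cells of a type and less RNA per cell cannot be told apart. Control libraries spread more widely than mutant libraries: on the first principal component of the 6 libraries (50.8% of the variance), controls lay at -26.9, -25.6 and -54.4 and mutants at 32.7 or above, so control replicate 3 stood apart. The labelled tissue matched its markers. The enterocyte gene Myo31DF measured 602, 712 and 706 CPM in controls and 675, 761 and 688 CPM in mutants, the enteroendocrine peptide gene Tk 84.3 CPM or more in every library, and the ovarian eggshell gene Cp36 had 1 count in 1 library and 0 in the other 5.

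Of 10088 genes tested, 369 rose (3.66%) and 304 fell (3.01%) in the mutant (edgeR quasi-likelihood test, Benjamini-Hochberg adjusted p under 0.05). The median log2 fold change of all tested genes was -0.03. With the replicate numbers taken as pairs in a fit of the 6 libraries, 227 rose and 152 fell, and leaving out 1 mutant library gave 200 to 236 that rose and 114 to 136 that fell. Below, a gene is called stable when it passed in the same direction in each of 17 fits, the one described and 16 alternatives. DESeq2 called 701 that rose and 656 that fell of 10316 (6.8% and 6.36%). Stable calls numbered 147 for genes that rose (1.46% of those tested) and 77 for genes that fell (0.763%). For a gene given with its values that was called but not stable, the largest adjusted p over the alternatives is given. Changes of at least 2-fold made up 234 of the increases (2.32% of those tested) and 195 of the decreases (1.93%), and 35 genes rose and 36 fell by at least 8-fold. The median level of genes that rose was 19.2 CPM in control against 36.5 CPM in mutant libraries, and that of genes that fell was 13.1 against 5.74 CPM. Of the 673 called genes, 279 carry a CG number as their only symbol, so much of the response has no functional name. Of the 673, 230 lie opposite another gene and 47 share their strand with an overlapping one; the strand setting of the counting is not stated, so reads of such partners cannot be told apart. Among genes named below an opposite partner exists for ACC, Apl, CG11911, CG11912, CG17192, CG31089, CG3348, CG34215, CG34316, CG6283, CG6830, CG7912, CG8036, CG9119, Ctr1B, Cyp6t3, Desat2, Echs1, Gabat, Gr39a, Ir85a, KCNQ, Lip3, Lsd-1, MRP, Mal-A1, Mtpalpha, Pgd, Rpi, SCOT, SLC5A11, Spn77Ba, Tk, Zw, aay, bib, bnl, crq, lectin-28C, meep, phr, tra and trpl, and a partner of the same strand for CG16700, CG4991, LysB, LysE, Mlp84B, Octbeta2R, Rpi and sgll.

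**Figure D1:**
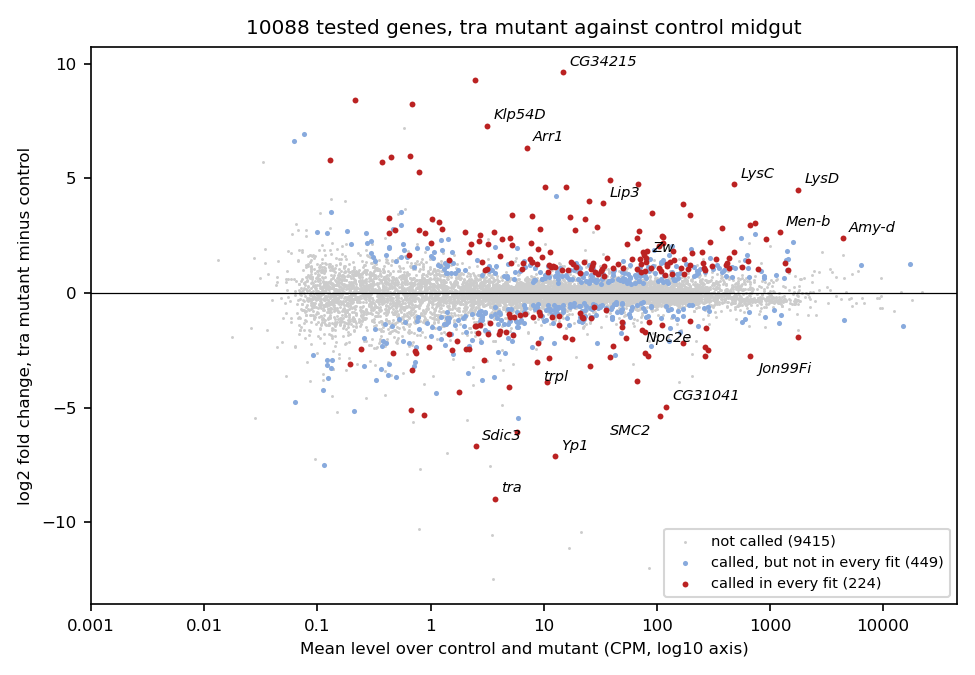
Each point is 1 of the 10088 tested genes, with its mean level over control and mutant groups (CPM, log10 axis) on the horizontal axis and its log2 fold change (mutant minus control) on the vertical axis. Red points are the 224 genes called in every fit, blue points the 449 called in the described fit but not in all others, and grey points those not called. Called genes lie on both sides of 0 over the whole range of levels.

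A part of the genes was grouped by function into 64 lists, and 49 of these held at least 1 called member. Distinct tested list members numbered 1250, of which 90 rose and 58 fell, so most of the 673 called genes lie outside the lists. Counts of each list are to be read beside the shares over all tested genes, 3.66% that rose and 3.01% that fell. Amylases and maltases (9 of 14 tested members rose), lysozymes (4 of 7 rose) and ecdysteroid kinase-like genes (10 of 45 rose) had the highest shares of members that rose. Tracheal markers (4 of 7 fell), basement membrane genes (3 of 8 fell) and fat body markers (4 of 12 fell) were among those with the highest shares of members that fell. The lists were chosen with earlier results of these data known, so their shares describe the response and are not independent evidence for it.

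**Figure D2:**
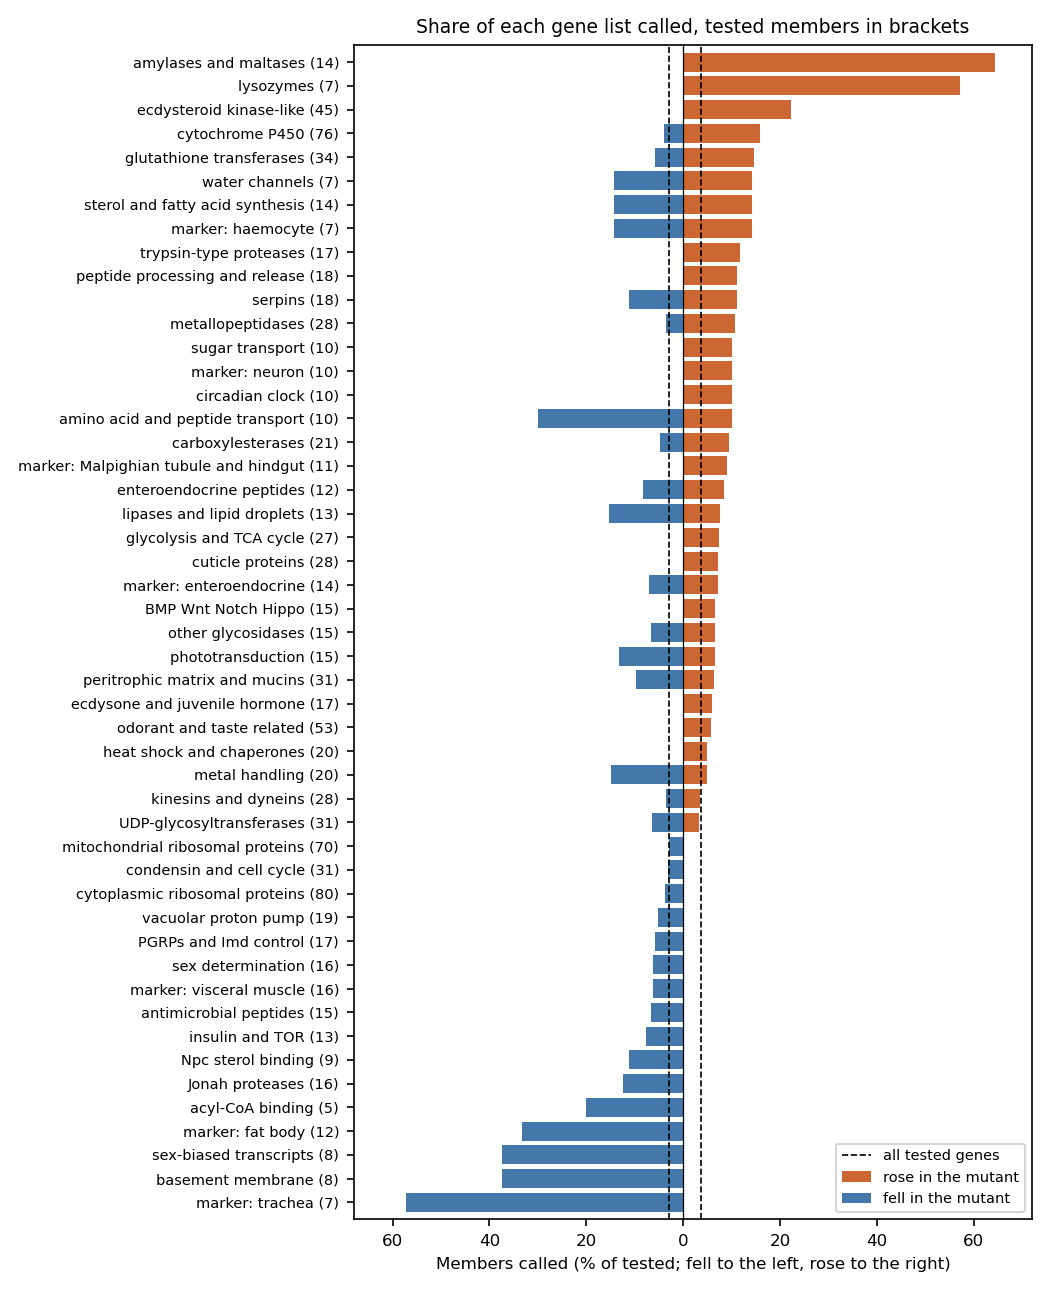
Bars give the percent of tested members of each gene list that rose (orange, to the right) or fell (blue, to the left) in the tra mutant; the number of tested members is in brackets and lists with no called member or under 5 tested members are not drawn, nor are the 4 lists written after the values had been seen. Dashed lines mark the share over all 10088 tested genes, 3.66% for genes that rose and 3.01% for genes that fell. Amylases and maltases, lysozymes and ecdysteroid kinase-like genes reach furthest to the right, and tracheal markers, basement membrane, sex-biased transcripts and fat body markers furthest to the left.

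The targeted gene checked the labels. tra itself (arm 3L) had 821, 650 and 742 counts in control and 1, 2 and 1 counts in the mutant (adjusted p from edgeR 1.1e-05). Scaled for depth, summed control counts were 546 times (95% interval from counting error 213 to 2004) the mutant counts. All 3 mutant libraries lay far below all 3 controls, and a gene lies opposite tra. None of the other 15 tested genes of the sex determination list passed. Sxl, which acts upstream of tra, measured 170.3, 186 and 178 CPM in controls and 156, 239 and 175 CPM in mutants (0.09 ± 0.16, edgeR adjusted p = 0.757). tra2, the splicing partner of tra, measured 20.8, 15.2 and 17.7 CPM in controls and 18.1, 19.4 and 19.4 CPM in mutants (0.08 ± 0.12, edgeR adjusted p = 0.705), and fru 9.63, 14.3 and 10.2 CPM in controls and 9.13, 15.6 and 10.2 CPM in mutants (0.04 ± 0.21, edgeR adjusted p = 0.937). For each of these 3 genes the libraries of the groups overlapped. These are totals over all transcripts of a gene, so a change of splice form with no change in total would not be seen in them.

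Of 8 dosage compensation genes, 0 were called by edgeR, 0 had an unadjusted p under 0.05, and 0 were called by DESeq2. msl-2, whose translation Sxl represses in females, measured 12.2, 12.8 and 9.98 CPM in controls and 10.1, 11.3 and 11.4 CPM in mutants (-0.09 ± 0.13, edgeR adjusted p = 0.691), and the non-coding RNA lncRNA:roX1, abundant in males, stayed between 0.448 and 0.913 CPM over the 6 libraries. The X chromosome held 42 genes that rose and 31 that fell of 1563 tested (2.69% and 1.98%). Chromosome arm 3R had the most calls, 93 that rose and 80 that fell of 2396 tested, but also the most tested genes. Its shares, 3.88% and 3.34%, lay near those of all tested genes, 3.66% and 3.01%. Among the 20 tested genes nearest to tra on arm 3L, 1 was called: Apl measured 0.0833, 0.181 and 0.0982 CPM in controls and 0.937, 0.693 and 0.603 CPM in mutants (2.62 ± 0.42, edgeR adjusted p = 0.00636). The other 19 did not pass.

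Enzymes that digest starch and disaccharides formed the list with the largest share of increases. Summed over the 14 genes, the amylase and maltase level was 43764, 33128 and 21223 CPM in control replicates 1, 2 and 3 and 82848, 74699 and 73753 CPM in the mutant, so the lowest mutant library lay above the highest control. Of the 14 genes, 9 rose, 0 fell and 5 did not pass, and their median log2 fold change was 1.36 against -0.03 for all genes. The count was 9 without control replicate 3 and 12 with DESeq2, 6 with replicate pairs in the 6 libraries, and 4, 3 and 6 without mutant replicate 1, 2 or 3. Of the 9, Amy-d, Mal-A2 and Mal-B2 were stable.

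The most abundant member, the maltase gene Mal-A1, measured 13159, 9678 and 7863 CPM in controls and 25096, 25348 and 23086 CPM in mutants (1.26 ± 0.25, edgeR adjusted p = 0.0182). Every mutant library exceeded every control, and the adjusted p reached 0.0708 with 1 mutant library left out or with the 6 libraries alone. Mal-A3 measured 814, 989 and 427 CPM in controls and 2210.4, 2082 and 1807 CPM in mutants (1.45 ± 0.29, edgeR adjusted p = 0.0189, up to 0.0714 without mutant replicate 1 or 2). Mal-A6 measured 5480.0, 3786 and 2351 CPM in controls and 9615, 8528 and 8664 CPM in mutants (1.21 ± 0.29, edgeR adjusted p = 0.0371, up to 0.116, lost without control replicate 2 or any 1 mutant library). Mal-A1 to Mal-A6 are 6 neighbouring tested genes on arm 2R, and all 6 rose. Their neighbours in the family did not pass: Mal-A7 measured 2431, 1082 and 412 CPM in controls and 5264, 3712 and 4529.6 CPM in mutants (1.78 ± 0.51, edgeR adjusted p = 0.0691). Mal-A8 measured 4139.7, 1501 and 755 CPM in controls and 7191, 5808 and 7018 CPM in mutants (1.65 ± 0.51, edgeR adjusted p = 0.0855). In both, control replicate 3 was the lowest and the groups did not overlap. tobi, an alpha-glucosidase gene that responds to dietary sugar and insulin-like signals, measured 8125, 2299 and 999.7 CPM in controls and 8650.5, 5529.9 and 6057 CPM in mutants; its groups overlapped (0.82 ± 0.60, edgeR adjusted p = 0.434). These genes are members of families of similar sequence, so values of single members are uncertain. Alignments to several places were counted in a separate line and not for any gene; that line held 15.3 ± 1.03% of all counts in controls and 19.4 ± 3.55% in mutants (SD, n = 3, two-sided exact permutation p = 0.2, the smallest possible being 0.1). Its part in the values of such genes was not tested.

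**Figure D3:**
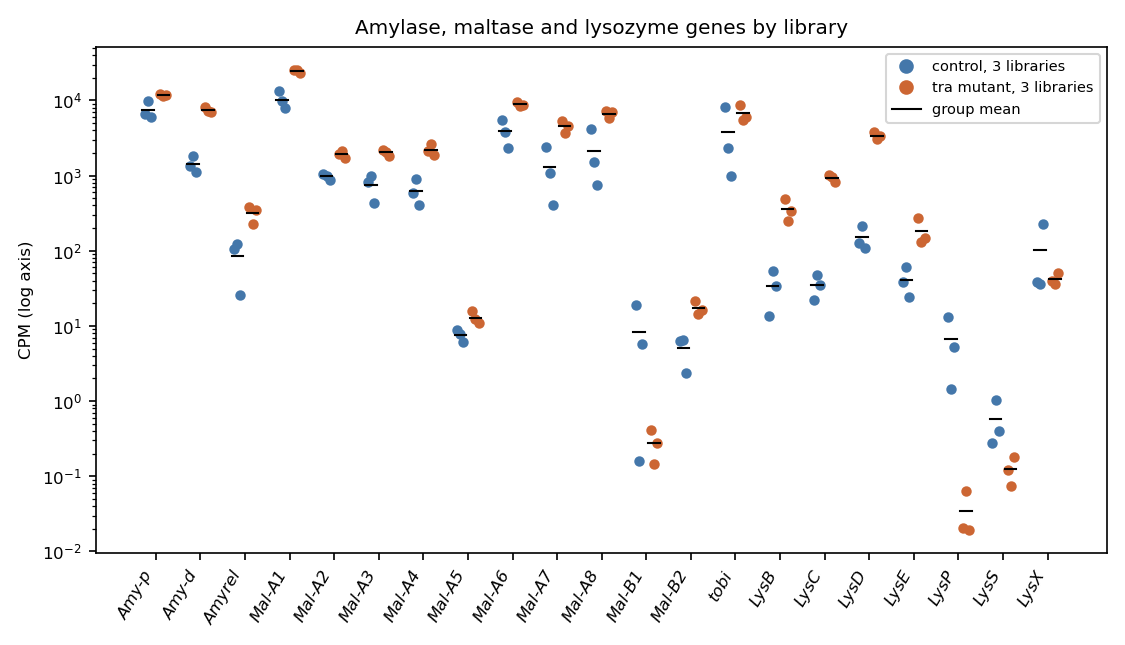
Points give the level (CPM, log axis) of each amylase, maltase and lysozyme gene in each of the 3 control (blue) and 3 tra mutant (orange) libraries, and short lines mark group means. Mutant points lie above control points for most maltases and for LysB, LysC, LysD and LysE, and below them for LysP and LysS.

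Lysozyme genes, whose products break down bacterial cell walls in the fly gut, split by gene. Their summed level was 253, 416 and 437 CPM in control and 5620, 4458 and 4701 CPM in the mutant. LysB, LysC, LysD and LysE rose, and these 4 calls were stable. LysB measured 13.5, 54.0 and 34.2 CPM in controls and 489, 247 and 339 CPM in mutants (3.40 ± 0.51, edgeR adjusted p = 0.00516), and LysE measured 38.0, 60.5 and 24.0 CPM in controls and 275, 129.6 and 148 CPM in mutants (2.17 ± 0.40, edgeR adjusted p = 0.0119). In both, the lowest mutant library was at least 2-fold above the highest control. LysP, described in flies as a salivary gland lysozyme, measured 13.2, 1.46 and 5.21 CPM in controls and 0.0204, 0.0630 and 0.0191 CPM in mutants (-7.57 ± 2.02, edgeR adjusted p = 0.0548); its groups did not overlap, and it did not pass. LysX measured 38.6, 35.6 and 229 CPM in controls and 39.3, 36.4 and 51.3 CPM in mutants and LysS 0.281, 1.04 and 0.402 CPM in controls and 0.122, 0.0735 and 0.182 CPM in mutants, and neither passed. LysB to LysE are adjacent near-identical copies on arm 3L, so their single values are uncertain. The 2 tested genes before them on the arm, meep and CG9119, rose as well and were stable: meep measured 2.78, 2.99 and 2.75 CPM in controls and 14.0, 11.4 and 12.6 CPM in mutants (2.16 ± 0.14, edgeR adjusted p = 5.69e-05), and CG9119 97.7, 127 and 62.6 CPM in controls and 299.7, 384 and 259.5 CPM in mutants (1.72 ± 0.26, edgeR adjusted p = 0.00504).

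Enzymes of the pentose phosphate pathway and NADPH supply included 6 that rose. This list was written after the values had been seen, so its count is a description only: of 10 tested members 0 fell, 4 did not pass, and the median log2 fold change was 0.98. Zw, glucose-6-phosphate dehydrogenase, which opens the pathway, measured 46.9, 40.1 and 37.6 CPM in controls and 131, 117 and 112 CPM in mutants (1.53 ± 0.14, edgeR adjusted p = 0.000393). Rpi, ribose-5-phosphate isomerase, measured 31.4, 29.4 and 19.4 CPM in controls and 72.4, 58.2 and 62.8 CPM in mutants (1.27 ± 0.20, edgeR adjusted p = 0.00564). Men-b, a malic enzyme that makes NADPH from malate, measured 327, 375 and 291 CPM in controls and 1665, 2769 and 1862 CPM in mutants (2.66 ± 0.26, edgeR adjusted p = 0.000479). These 3 calls were stable, and in each the groups were apart. Pgd, the next dehydrogenase of the pathway, measured 147, 180.3 and 145 CPM in controls and 278, 298 and 218 CPM in mutants (0.75 ± 0.17, edgeR adjusted p = 0.0326, up to 0.106, lost without control replicate 1 or 3 or mutant replicate 1 or 2). Taldo, transaldolase, measured 173, 178 and 126 CPM in controls and 368, 335 and 269 CPM in mutants (1.03 ± 0.20, edgeR adjusted p = 0.0169), and CG8036, which the reference gives the synonym Transk, measured 399.9, 396 and 255 CPM in controls and 802, 914 and 609.5 CPM in mutants (1.15 ± 0.23, edgeR adjusted p = 0.0184). The calls of Taldo and CG8036 were lost without mutant replicate 1 or 2, with adjusted p up to 0.0707 and 0.0689. Without mutant replicate 1 or 2 the count of the list was 3, and without control replicate 3 it was 5.

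Glycolysis was covered by a list that also holds Men-b. Of 27 tested genes of glycolysis and the TCA cycle, 2 rose and 0 fell, and both were stable: Men-b and Pgi, the isomerase that connects glucose-6-phosphate to fructose-6-phosphate. Pgi measured 164, 176 and 102 CPM in controls and 382, 402 and 303 CPM in mutants (1.30 ± 0.23, edgeR adjusted p = 0.0102). Of the other glycolytic genes, Hex-A, Pfk and Ldh had log2 fold changes of 0.40 ± 0.16, 0.45 ± 0.14 and 0.77 ± 0.25 (p adjusted by edgeR of 0.174, 0.0964 and 0.0964). With DESeq2, 8 of the 27 rose and 0 fell, and at an unadjusted edgeR p under 0.05, 13 rose and 0 fell. Shares of calls over all tested genes were 3.66% that rose and 3.01% that fell. The pentose phosphate list was written after the values had been seen, so its count cannot be compared with that of glycolysis. Whether Pgi differed from the other steps was not tested.

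Several mitochondrial enzymes of amino acid and ketone breakdown rose as well. They were picked after their values had been seen. Gabat, the transaminase that removes the amino group of GABA, measured 20.2, 31.2 and 13.1 CPM in controls and 107, 112 and 119 CPM in mutants (2.39 ± 0.30, edgeR adjusted p = 0.00201), and Ssadh, which carries out the following oxidation, measured 102, 124 and 127 CPM in controls and 333, 255 and 244 CPM in mutants (1.24 ± 0.19, edgeR adjusted p = 0.0052). SCOT, the transferase that activates ketone bodies, measured 39.0, 48.9 and 40.1 CPM in controls and 108, 112 and 87.4 CPM in mutants (1.26 ± 0.17, edgeR adjusted p = 0.0031). Echs1, an enoyl-CoA hydratase, rose from 108, 117 and 85.8 CPM in controls to 248, 199 and 215 CPM in mutants (1.09 ± 0.15, edgeR adjusted p = 0.00317). All 4 calls were stable. In the list of 13 fat oxidation and ketone genes, 2 fell: Mtpalpha, a subunit of the trifunctional protein, changed by -0.69 ± 0.16 in log2 (edgeR adjusted p = 0.0323, up to 0.123) and Hmgs, which makes an early precursor of the mevalonate pathway, with -0.61 ± 0.13 (edgeR adjusted p = 0.0241, up to 0.0961), and both were lost without control replicate 2 or any 1 mutant library. The enzymes aay (phosphoserine phosphatase), Cth (cystathionine gamma-lyase) and sgll (which makes the active form of vitamin B6) rose by 1.10 ± 0.19, 1.19 ± 0.15 and 0.77 ± 0.13, and each was stable. ry, xanthine dehydrogenase of purine breakdown, measured 47.9, 38.1 and 25.8 CPM in controls and 138, 114.9 and 95.1 CPM in mutants (1.64 ± 0.22, edgeR adjusted p = 0.00295). Gpo1, the mitochondrial glycerophosphate oxidase, went the other way, with 70.7, 106 and 154 CPM in controls and 34.6, 37.0 and 36.6 CPM in mutants (-1.61 ± 0.24, edgeR adjusted p = 0.00468).

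**Figure D4:**
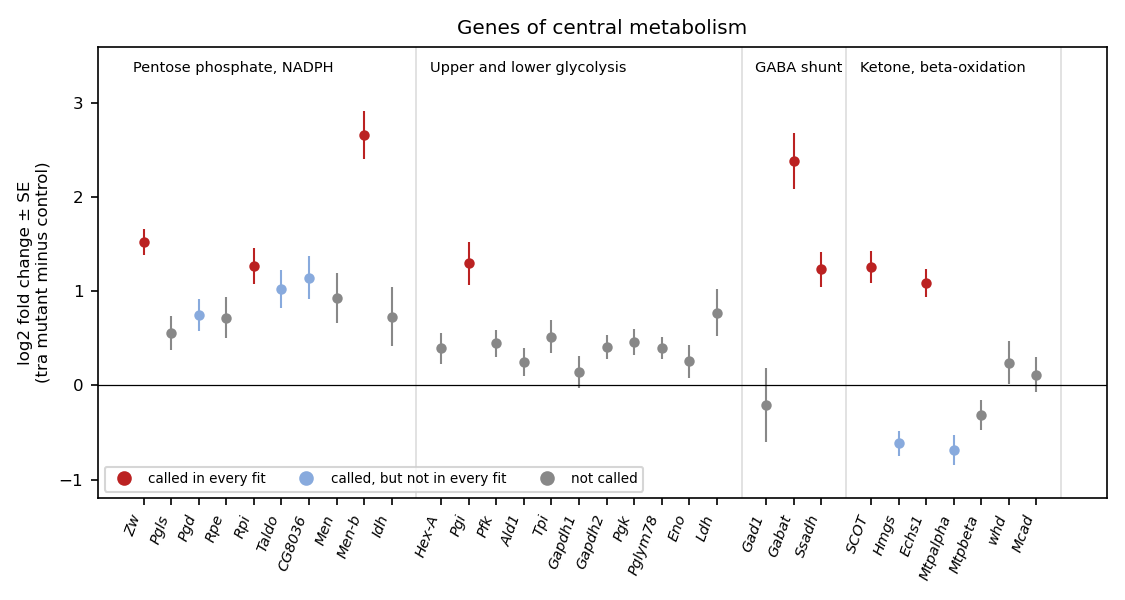
Points give the log2 fold change (mutant minus control) with its SE for genes of the pentose phosphate pathway and NADPH supply, glycolysis, the GABA shunt, and ketone and fatty acid breakdown. Red points were called in every fit, blue points in the described fit but not in every other, and grey points were not called. Zw, Rpi, Men-b, Pgi, Gabat, Ssadh, SCOT and Echs1 are red and above 0.

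Of 16 tested Jonah genes, which encode digestive serine proteases, 0 rose and 2 fell, with a median log2 fold change of -0.56. The number that fell was 6 with DESeq2, 4 and 3 without control replicate 1 or 3, and 1 without control replicate 2 or any 1 mutant library. Jon99Fi measured 758, 1436 and 1301 CPM in controls and 174, 209 and 137 CPM in mutants (-2.75 ± 0.29, edgeR adjusted p = 0.000808) and was stable, and Jon65Ai measured 619, 1142 and 627 CPM in controls and 407, 338 and 256 CPM in mutants (-1.26 ± 0.32, edgeR adjusted p = 0.0489, up to 0.164). In both, every mutant library lay below every control. Of 17 trypsin-type genes, 2 rose and 0 fell, with a median of 0.03; without mutant replicate 1 or 2, 0 rose. The most abundant of these, alphaTry and betaTry, had overlapping groups. alphaTry measured 23674, 26826 and 14671 CPM in controls and 27030.5, 20802 and 18717 CPM in mutants (0.03 ± 0.29), and betaTry 14802, 18694 and 8956 CPM in controls and 16379, 14299.6 and 12430.5 CPM in mutants (0.02 ± 0.30); the sign of both turned without control replicate 3 or mutant replicate 1. Phae2 measured 246, 292 and 243 CPM in controls and 498, 605 and 452 CPM in mutants (0.99 ± 0.20, edgeR adjusted p = 0.0182, up to 0.0677), and Ser6 96.0, 135 and 86.0 CPM in controls and 256, 325 and 180.4 CPM in mutants (1.26 ± 0.30, edgeR adjusted p = 0.0358, up to 0.113). Phae2 was lost without mutant replicate 1 or 2, and Ser6 without any 1 of mutant replicates 1 and 2, control replicates 1 and 3 and rescue replicate 2. Serpins, which inhibit serine proteases, moved both ways, with 2 of 18 that rose and 2 that fell. Spn53F measured 9.37, 12.8 and 7.53 CPM in controls and 20.6, 31.6 and 23.4 CPM in mutants (1.35 ± 0.23, edgeR adjusted p = 0.00804), and Spn47C had 0, 5 and 7 counts in control and 161, 133 and 169 counts in the mutant, 39.1 times as many in sum after scaling for depth (95% interval from counting error 22.2 to 76.3). Both were stable. The serpins that fell were Spn77Ba, at 1.56, 1.74 and 1.70 CPM in controls and 0.856, 0.861 and 0.708 CPM in mutants (-1.04 ± 0.23, edgeR adjusted p = 0.0276, up to 0.105), and Spn88Eb, with 15, 31 and 19 counts in control and 4, 2 and 1 counts in the mutant (adjusted p from edgeR 0.0372, up to 0.132). Without control replicate 2 or any 1 mutant library 0 serpins fell, and without control replicate 1 it was 4.

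Genes of lipid handling moved in both directions. Among 13 lipase and lipid droplet genes, 1 rose and 2 fell, and among 14 genes of sterol and fatty acid synthesis, 2 rose and 2 fell. Of the former, 1, 0 and 0 fell without mutant replicate 1, 2 or 3 and 3 without control replicate 3; of the latter, 1 fell without any 1 mutant library, 3 fell without control replicate 1, and 1 rose without mutant replicate 1 or 3. bond, an elongase of very long fatty acids, measured 7.91, 9.18 and 7.37 CPM in controls and 3.99, 4.09 and 4.55 CPM in mutants (-0.95 ± 0.15, edgeR adjusted p = 0.00594) and was stable. Desat1, the main fatty acid desaturase, measured 709.7, 1169.5 and 582 CPM in controls and 315, 436 and 375 CPM in mutants (-1.13 ± 0.25, edgeR adjusted p = 0.027, up to 0.108), with all mutant libraries below all controls. Desat2, its neighbour on arm 3R, measured 9.90, 10.8 and 4.99 CPM in controls and 3.85, 3.40 and 3.24 CPM in mutants (-1.29 ± 0.26, edgeR adjusted p = 0.02, up to 0.0829). ACC, acetyl-CoA carboxylase, which makes the building block of fatty acids, measured 186, 161 and 115.0 CPM in controls and 362, 258 and 268 CPM in mutants (0.94 ± 0.20, edgeR adjusted p = 0.0241, up to 0.0895). Desat1 and Desat2 were lost without any 1 mutant library, Desat2 also without control replicate 2 and Desat1 without rescue replicate 2, and ACC without mutant replicate 1 or 3 or control replicate 2. Lsd-1, a perilipin of lipid droplets, measured 55.0, 74.4 and 38.5 CPM in controls and 30.1, 22.2 and 22.8 CPM in mutants (-1.16 ± 0.24, edgeR adjusted p = 0.0225, up to 0.0917 without mutant replicate 2 or 3 or with replicate pairs). NLaz, a secreted lipocalin, measured 446, 494 and 264 CPM in controls and 147, 169.7 and 94.4 CPM in mutants (-1.55 ± 0.27, edgeR adjusted p = 0.0102) and was stable. Acsx3, an acyl-CoA synthetase gene picked after its values were seen, rose from 6.12, 4.71 and 2.72 CPM in controls to 38.2, 46.6 and 39.8 CPM in mutants (3.20 ± 0.26, edgeR adjusted p = 0.000189).

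Cytochrome P450 genes, which oxidise foreign and internal compounds, rose more often than they fell. Of 76 tested cytochrome P450 genes, 12 rose and 3 fell, 14 and 7 without control replicate 3, 22 and 8 with DESeq2, and 6 to 7 rose without 1 mutant library. Stable increases were Cyp12d1-p, Cyp28a5, Cyp4p2, Cyp9h1 and Cyp12e1. Cyp12d1-p measured 5.12, 2.83 and 0.990 CPM in controls and 51.5, 43.7 and 47.5 CPM in mutants (4.0 ± 0.53, edgeR adjusted p = 0.00257), with every mutant library more than 8-fold above the highest control; it has a near-identical copy, so its reads are uncertain. Cyp12e1 measured 10.6, 9.14 and 9.07 CPM in controls and 20.1, 18.0 and 19.5 CPM in mutants (1.0 ± 0.12, edgeR adjusted p = 0.00144). Cyp6t3 was among the stable decreases, with 6.71, 6.66 and 5.20 CPM in controls and 2.28, 1.51 and 1.56 CPM in mutants (-1.79 ± 0.23, edgeR adjusted p = 0.00201).

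Among conjugating enzymes and esterases, glutathione transferases gave 5 that rose and 2 that fell of 34, UDP-glycosyltransferases 1 and 2 of 31, and carboxylesterases 2 and 1 of 21. Shares over all tested genes were 3.66% and 3.01%, so the small counts of the glycosyltransferases and esterases do not set those lists apart. The glutathione transferases that rose numbered 2, 4 and 1 without mutant replicate 1, 2 or 3, 7 without control replicate 2 or 3 and 8 with DESeq2; 0 fell without mutant replicate 1 or 3. Of the glycosyltransferases 2 rose without any 1 control library and 4 fell without control replicate 3. Of the esterases 1 rose without any 1 mutant library, 3 rose without control replicate 1 or 2, and 2 fell without control replicate 3. Ugt37B1 measured 51.0, 44.1 and 11.2 CPM in controls and 176, 208 and 187 CPM in mutants (2.43 ± 0.44, edgeR adjusted p = 0.0113). Its relatives went down: Ugt37E1 measured 4.85, 3.55 and 2.07 CPM in controls and 0.591, 0.724 and 0.603 CPM in mutants (-2.45 ± 0.33, edgeR adjusted p = 0.00294), and Ugt37C2 37.7, 34.9 and 34.2 CPM in controls and 13.5, 21.6 and 14.6 CPM in mutants (-1.11 ± 0.17, edgeR adjusted p = 0.00527). All 3 were stable, as were alpha-Est8, at 68.9, 70.3 and 78.2 CPM in controls and 155, 190.0 and 176 CPM in mutants (1.26 ± 0.12, edgeR adjusted p = 0.000437), and alpha-Est2, at 7.10, 6.22 and 7.02 CPM in controls and 3.78, 2.78 and 3.32 CPM in mutants (-1.04 ± 0.17, edgeR adjusted p = 0.00679). So the Ugt37 and alpha-Est families each held members that rose and members that fell, and in each named member the groups did not overlap. MRP, an ABC transporter that exports conjugates, measured 568, 454 and 510.1 CPM in controls and 1169, 984 and 1046 CPM in mutants (1.06 ± 0.17, edgeR adjusted p = 0.00716) and was stable.

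Ecdysteroid kinase-like genes, a family of putative small-molecule kinases, gave 10 that rose and 0 that fell of 45 tested, with a median log2 fold change of 0.44. The count was 8 without control replicate 3, 12 with DESeq2, 6 with replicate pairs in the 6 libraries, 6 without control replicate 2, and 3, 3 and 5 without mutant replicate 1, 2 or 3. Summed levels were 3660, 3473 and 3092 CPM in control and 5299, 6044 and 5523 CPM in the mutant. CG31288, stable, measured 204, 188 and 142 CPM in controls and 329, 413 and 333 CPM in mutants (1.01 ± 0.17, edgeR adjusted p = 0.00754). CG31104 measured 367, 412 and 195 CPM in controls and 681, 1101 and 882 CPM in mutants (1.45 ± 0.28, edgeR adjusted p = 0.0145, 0.0556 without mutant replicate 2). The neighbours CG6830, CG6834 and CG6908 on arm 3R all rose; CG6908 measured 85.5, 72.2 and 29.4 CPM in controls and 182, 197 and 205 CPM in mutants (1.64 ± 0.34, edgeR adjusted p = 0.021, up to 0.0663 without 1 mutant library), and the largest adjusted p over the edgeR and DESeq2 alternatives was 0.116 for CG6830 and 0.061 for CG6834. Antioxidant genes gave 0 calls of 17 with edgeR (4 at an unadjusted p below 0.05, 0 with DESeq2). As 6.67% of all tested genes were called, this count does not show that the list was spared. Cat, catalase, measured 689, 796 and 306 CPM in controls and 973, 637 and 898 CPM in mutants with overlapping groups (0.49 ± 0.33, edgeR adjusted p = 0.404).

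Ion and metal transporters included stable changes of abundant genes. Ctr1B, a copper importer, measured 69.7, 69.2 and 42.3 CPM in controls and 219.7, 237 and 194 CPM in mutants (1.84 ± 0.19, edgeR adjusted p = 0.000749). Zip42C.2, a zinc importer, measured 82.7, 83.8 and 36.8 CPM in controls and 7.03, 12.7 and 9.74 CPM in mutants (-2.79 ± 0.33, edgeR adjusted p = 0.00144). Of the 20 metal genes, these were the stable calls, and 1 rose and 3 fell in all, while 5 fell without control replicate 3 and 1 fell without control replicate 1 or any 1 mutant library. CAH2, a carbonic anhydrase, measured 358, 377 and 345 CPM in controls and 688, 932 and 707 CPM in mutants (1.11 ± 0.15, edgeR adjusted p = 0.00333). Acid-base and potassium transport genes picked after their values were seen rose with it. Nhe2, a sodium-proton exchanger, measured 258, 233 and 236 CPM in controls and 518, 723 and 463 CPM in mutants (1.23 ± 0.17, edgeR adjusted p = 0.00403). KCNQ, a potassium channel, measured 226, 195 and 143 CPM in controls and 439.9, 453 and 385 CPM in mutants (1.18 ± 0.18, edgeR adjusted p = 0.0052), and pHCl-2, a chloride channel, 130.2, 145 and 91.6 CPM in controls and 278, 240.5 and 245 CPM in mutants (1.06 ± 0.17, edgeR adjusted p = 0.00661). The groups were apart in all 3, and the calls were stable. bib, of the aquaporin family, measured 4.14, 4.3 and 6.65 CPM in controls and 1.25, 1.60 and 1.51 CPM in mutants (-1.79 ± 0.23, edgeR adjusted p = 0.00257). The proton pump genes of the V-ATPase gave 0 that rose and 1 that fell of 19. Their median log2 fold change was -0.30, and at an unadjusted edgeR p under 0.05, 0 rose and 5 fell. Shares over all tested genes were 3.66% and 3.01%, so these calls do not set the list apart.

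Of 10 amino acid transporters, 3 fell and 1 rose; 3 and 3 did so at an unadjusted p under 0.05, and 3 and 2 with DESeq2. slif, a carrier of cationic amino acids, measured 135, 251 and 193 CPM in controls and 55.9, 93.9 and 52.4 CPM in mutants (-1.52 ± 0.29, edgeR adjusted p = 0.015, up to 0.073 without mutant replicate 1 or 3). NAAT1, a nutrient amino acid transporter, measured 102, 136 and 97.7 CPM in controls and 62.9, 48.2 and 55.6 CPM in mutants (-1.01 ± 0.16, edgeR adjusted p = 0.00636, 0.0542 with replicate pairs in the 6 libraries). Without mutant replicate 1 or 3, 1 member of the list fell, and without any 1 mutant library 0 rose. SLC5A11, a sodium-coupled solute carrier picked after its values were seen, measured 53.0, 90.7 and 67.8 CPM in controls and 30.9, 30.1 and 25.4 CPM in mutants (-1.29 ± 0.20, edgeR adjusted p = 0.00538) and was stable. CG6484, whose function the files do not name, rose, with 661, 904 and 766 CPM in controls and 2029, 2256 and 1509.9 CPM in mutants (1.31 ± 0.22, edgeR adjusted p = 0.008), also stable.

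Summed marker levels of trachea and visceral muscle were lower in every mutant library than in every control. The 7 tracheal markers summed to 60.6, 67.6 and 65.5 CPM in control and 33.2, 33.5 and 32.8 CPM in the mutant, with no overlap, and 4 of them fell, 2 without mutant replicate 1 or 2 and 1 without mutant replicate 3. bnl, the fibroblast growth factor that attracts tracheal branches, measured 19.9, 23.4 and 30.3 CPM in controls and 5.57, 6.85 and 7.01 CPM in mutants (-1.92 ± 0.17, edgeR adjusted p = 0.000277) and was stable. It is in the tracheal list, although it is made by the cells that tracheae grow towards. Its fall is a large part of the lower tracheal sum, and no sum without bnl is given. trh, the transcription factor of tracheal cells, measured 3.76, 4.53 and 3.40 CPM in controls and 2.30, 2.07 and 2.22 CPM in mutants (-0.83 ± 0.19, edgeR adjusted p = 0.0307, up to 0.098 and lost without control replicate 2 or any 1 mutant library), and Gasp, a chitin-binding protein of the tracheal tube, 15.2, 18.6 and 15.1 CPM in controls and 8.06, 10.5 and 10.3 CPM in mutants (-0.76 ± 0.15, edgeR adjusted p = 0.0184, up to 0.0714 without mutant replicate 1 or 3). The 16 visceral muscle markers summed to 3150, 3562 and 3201 CPM in control and 2414, 2158 and 2604 CPM in the mutant; 1 of them fell (5 with DESeq2). This was Mlp84B, a muscle LIM protein gene, at 61.1, 63.1 and 60.6 CPM in controls and 32.1, 27.8 and 42.7 CPM in mutants (-0.85 ± 0.18, edgeR adjusted p = 0.0229, up to 0.0929), whose call was lost without control replicate 2 or mutant replicate 1 or 2. The muscle myosin gene Mhc measured 596, 708 and 519 CPM in controls and 428, 303 and 403 CPM in mutants and did not pass (-0.69 ± 0.21, edgeR adjusted p = 0.0831).

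Basement membrane genes fell in 3 of 8 cases, 2 without control replicate 3, and 1 when control replicate 2 or any 1 mutant library was left out. Ppn, papilin, a matrix glycoprotein, measured 83.6, 133 and 141 CPM in controls and 36.0, 34.7 and 39.4 CPM in mutants (-1.70 ± 0.24, edgeR adjusted p = 0.0041) and was stable. The collagen IV genes Col4a1 and vkg measured 8.44, 21.9 and 9.35 CPM in controls and 1.94, 3.51 and 2.21 CPM in mutants (-2.37 ± 0.50, edgeR adjusted p = 0.0232, up to 0.1) and 5.51, 13.6 and 6.61 CPM in controls and 1.76, 2.75 and 1.48 CPM in mutants (-2.10 ± 0.53, edgeR adjusted p = 0.0459, up to 0.154). Control replicate 2 was the highest for both collagens; both calls were lost without it or any 1 mutant library, and that of vkg also without control replicate 3. It was also the highest for the haemocyte genes Hml, at 7.31, 28.6 and 9.15 CPM in controls and 2.27, 6.31 and 2.03 CPM in mutants, and NimC1, at 0.677, 1.75 and 0.964 CPM in controls and 0.214, 0.262 and 0.230 CPM in mutants, which did not pass (-2.09 ± 0.74 and -2.26 ± 0.67, edgeR adjusted p = 0.121 and 0.0769). Haemocytes and the fat body are known sources of collagen IV. The part of haemocytes in the collagen values was not tested. The scavenger receptor gene crq, in the haemocyte list, went up instead, from 136, 119.9 and 122 CPM in controls to 216, 200.3 and 249 CPM in mutants (0.82 ± 0.15, edgeR adjusted p = 0.0121); with it included, the 7 haemocyte markers summed to 221 to 264 CPM in mutants and 146 to 177 CPM in controls.

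Fat body markers summed to 101, 69.8 and 18.0 CPM in control replicates 1, 2 and 3 and to 10.6, 8.08 and 8.44 CPM in the mutant. Without the yolk protein genes the sums were 20.3, 16.0 and 8.46 CPM in control and 9.59, 7.66 and 8.05 CPM in the mutant, and the groups overlapped. Of 12 tested, 4 fell. Leaving out control replicate 3 gave 6, and leaving out any other 1 of the 6 libraries gave 3. The 4 were the yolk protein genes Yp1, Yp2 and Yp3 and the storage protein gene Lsp1gamma. Yp2 had 1535, 1498 and 252 counts in control and 23, 19 and 8 counts in the mutant (adjusted p from edgeR 0.00257) and was stable. The largest adjusted p over the edgeR and DESeq2 alternatives was 0.112 for Yp3 and 0.0696 for Lsp1gamma. The fat body gene apolpp, which encodes the main lipid carrier of the blood, measured 14.5, 8.55 and 2.91 CPM in control and 4.47, 3.59 and 3.71 CPM in the mutant, with overlapping groups, and Lsp2 and Fbp1 had at most 26 and 7 counts in any library. Yp1 measured 44.9, 25.2 and 5.23 CPM in controls and 0.367, 0.0840 and 0.0861 CPM in mutants, in the same order of control libraries as apolpp. The part of attached fat body in the yolk protein values was not tested.

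**Figure D5:**
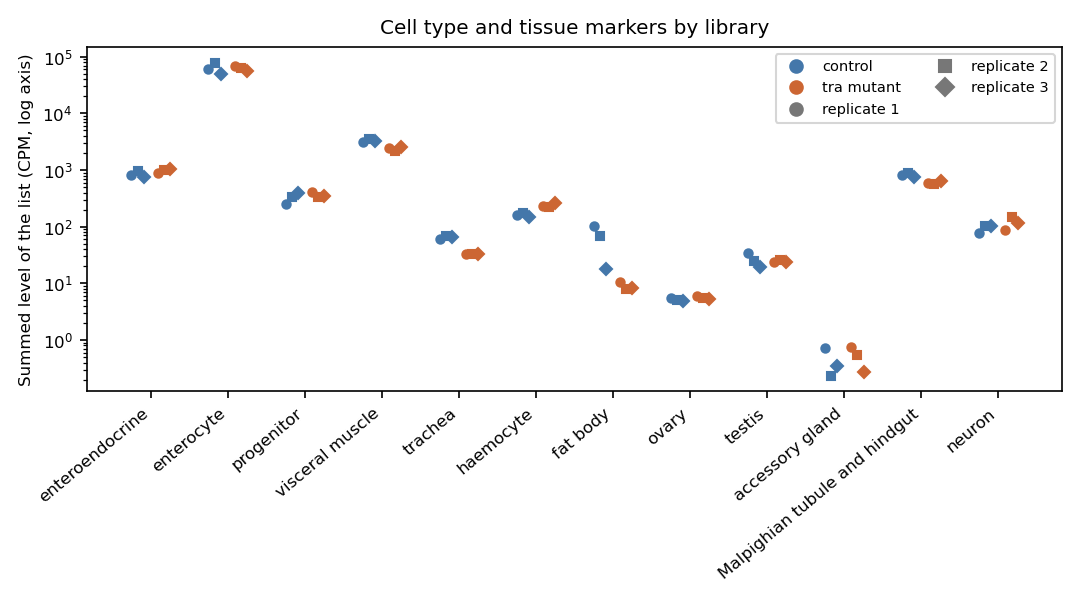
Points give the summed level (CPM, log axis) of each list of cell type or tissue markers in the 3 control (blue) and 3 tra mutant (orange) libraries; shapes mark the replicate number. Tracheal, muscle, tubule and fat body sums are lower in all 3 mutant libraries (the fat body sum overlaps without its yolk protein genes). The tubule and hindgut sum does not speak for most of its members: of 11 tested, 8 had a positive log2 fold change (median 0.36), 1 rose and 0 fell. The haemocyte sum is higher, but most of it is crq: of 7 tested members, 1 had a positive log2 fold change (median -2.09), 1 rose and 1 fell. The enterocyte, progenitor, ovary, testis and accessory gland sums overlap.

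Summed markers of the main epithelial cells overlapped between groups. None of 12 enterocyte markers was called by edgeR, and their sum was 61643, 78809 and 49320.1 CPM in control and 68645, 63094 and 56054 CPM in the mutant. None of 11 progenitor markers was called, with sums of 257, 330 and 395 CPM against 413, 334 and 351 CPM. Sox21a, a stem cell and enteroblast transcription factor, measured 8.55, 15.8 and 54.1 CPM in controls and 8.66, 9.89 and 13.3 CPM in mutants; control replicate 3 stood above the other 5 libraries. None of 13 regional identity genes was called. At an unadjusted p below 0.05, 2 enterocyte, 3 progenitor and 3 regional markers differed; DESeq2 called 2, 0 and 1. Of 14 enteroendocrine markers, 1 rose and 1 fell. When 1 mutant library or control replicate 1 or 2 was left out 0 fell, and 2 rose without control replicate 2 or 3. The 1 that rose was Tk, at 97.8, 115 and 84.3 CPM in controls and 166, 184 and 176 CPM in mutants (0.82 ± 0.14, edgeR adjusted p = 0.00748), and its call was stable. pros, the transcription factor of enteroendocrine cells, measured 7.65, 9.63 and 9.27 CPM in control and 11.9, 12.4 and 13.3 CPM in the mutant, and was not called (0.50 ± 0.13, edgeR adjusted p = 0.0549).

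Some genes known from sense organs were called in the midgut at low levels. trpl, a light-activated calcium channel of photoreceptors that is also expressed in other tissues, measured 10.2, 23.1 and 13.2 CPM in controls and 2.09, 1.44 and 2.15 CPM in mutants (-3.03 ± 0.32, edgeR adjusted p = 0.00074). Gr39a, a gustatory receptor gene, measured 0.177, 0.553 and 0.214 CPM in controls and 2.34, 3.12 and 1.13 CPM in mutants (2.80 ± 0.52, edgeR adjusted p = 0.0125), and Ir85a, of the ionotropic receptor family, 2.47, 2.15 and 1.47 CPM in controls and 6.81, 6.72 and 4.79 CPM in mutants (1.59 ± 0.24, edgeR adjusted p = 0.00504). The 3 calls were stable, and groups did not overlap. Of 15 tested phototransduction genes, 1 rose and 2 fell. The 1 that rose was Arr1, an arrestin gene, which had 24, 23 and 4 counts in control and 808, 1817 and 1550 counts in the mutant (adjusted p from edgeR 0.000479) and was stable. trp, the channel gene related to trpl, had 11, 26 and 34 counts in control and 4, 0 and 1 counts in the mutant (adjusted p from edgeR 0.0251, up to 0.114), and its call was lost without control replicate 2 or 3 or mutant replicate 2 or 3. Over all odorant and taste genes, 53 of 233 had enough counts to be tested, 3 rose and 0 fell. Shares over all tested genes were 3.66% that rose and 3.01% that fell, so the 3 of 53 do not set these genes apart. Octbeta2R, an octopamine receptor gene picked after its values were seen, measured 1.0, 1.34 and 0.642 CPM in controls and 2.86, 4.09 and 3.15 CPM in mutants (1.76 ± 0.29, edgeR adjusted p = 0.00716) and was stable.

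Several lists of core cell functions had few or no calls in number. Over all tested genes 3.66% rose and 3.01% fell, so a small count in such a list does not by itself set it apart. The 67 respiratory chain genes, 35 proteasome subunits and 22 genes of JAK-STAT, EGFR and JNK signalling had 0 called members with edgeR. At an unadjusted edgeR p under 0.05, 20, 4 and 1 of them fell and 1, 0 and 1 rose. DESeq2 called 3, 1 and 0 that fell and 1, 0 and 1 that rose. Median log2 fold changes of the 3 lists were -0.30, -0.13 and -0.27, beside -0.03 for all genes. Without control replicate 3 these medians were -0.28, -0.03 and 0.005. The share of all tested genes at that unadjusted p is not given here. Of 80 cytoplasmic ribosomal protein genes, 0 rose and 3 fell, 7 fell without control replicate 3, and 0 fell with replicate pairs in the 6 libraries or without control replicate 1 or any 1 mutant library; their median was -0.35. Of 70 mitochondrial ribosomal protein genes, 2 fell, 4 without control replicate 2 and 0 without control replicate 3 or any 1 mutant library, and their median was -0.24. Of 31 condensin and cell cycle genes, 1 fell, 4 without control replicate 2 and 8 with DESeq2. Their median was -0.99, but -0.08 without control replicate 3. The 1 was the condensin subunit gene SMC2, at 248, 236 and 136 CPM in controls and 4.31, 4.35 and 6.39 CPM in mutants (-5.36 ± 0.35, edgeR adjusted p = 5.27e-05), which was stable. Stat92E, the transcription factor of JAK-STAT signalling, measured 290.2, 330.1 and 281 CPM in controls and 269, 329.7 and 289 CPM in mutants (-0.02 ± 0.13, edgeR adjusted p = 0.937). Single regulators with calls were picked after their values were seen. ptc, the receptor of Hedgehog, measured 51.2, 47.8 and 32.8 CPM in controls and 95.7, 90.3 and 82.2 CPM in mutants (1.03 ± 0.16, edgeR adjusted p = 0.00593), and Claspin, of the replication checkpoint, 18.3, 20.5 and 19.9 CPM in controls and 6.34, 7.72 and 8.41 CPM in mutants (-1.39 ± 0.15, edgeR adjusted p = 0.000833); both were stable.

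The immune lists apart from the lysozymes were small, and each held 1 call or none. Over all tested genes 3.66% rose and 3.01% fell, so these counts do not show that the lists were spared. Of 15 antimicrobial peptide genes, 0 rose and 1 fell, CecC, 3 fell without control replicate 1 and 0 without control replicate 2 or any 1 mutant library, and their median log2 fold change was -2.17 beside -0.03 for all genes. The largest adjusted p of CecC over the edgeR and DESeq2 alternatives was 0.112. The peptide genes summed to 3.67, 18.3 and 16.0 CPM in control and 3.25, 2.97 and 3.78 CPM in the mutant, so control replicate 1 lay within the mutant range. Of 17 peptidoglycan recognition and Imd control genes, 1 fell: Irc, an immune-regulated catalase, at 3.40, 5.37 and 2.68 CPM in controls and 1.59, 1.72 and 1.64 CPM in mutants (-1.21 ± 0.26, edgeR adjusted p = 0.0263, up to 0.0974, lost without control replicate 2 or any 1 mutant library). None of the 3 tested Turandot stress genes was called, 3 had an unadjusted p below 0.05, and DESeq2 called 0. TotM measured 0.542, 3.04 and 13.2 CPM in controls and 0.255, 0.262 and 1.62 CPM in mutants, and TotC 1.32, 2.01 and 10.3 CPM in controls and 1.80, 1.29 and 1.26 CPM in mutants. In both, control replicate 3 was the highest of the 6 libraries. Without this library the peptide median was -2.19.

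The abundant genes with stable changes included many without a functional name. Of those that rose, CG15263 measured 317, 88.9 and 69.9 CPM in controls and 1135, 1514 and 1266 CPM in mutants (3.04 ± 0.51, edgeR adjusted p = 0.00807). CG6283 measured 128, 202 and 117 CPM in controls and 1621, 595 and 1305 CPM in mutants (2.98 ± 0.36, edgeR adjusted p = 0.00173). CG3609 measured 379, 339 and 187 CPM in controls and 1712, 1482 and 1383 CPM in mutants (2.34 ± 0.27, edgeR adjusted p = 0.00127). In CG15263 control replicate 1 was the highest control, and in CG6283 mutant replicate 2 the lowest mutant. CG8093 rose from 309, 429 and 321 CPM in controls to 906, 884 and 974 CPM in mutants (1.39 ± 0.16, edgeR adjusted p = 0.00144). Of those that fell, CG11911 measured 2463, 3898 and 2029.8 CPM in controls and 675, 836 and 684 CPM in mutants (-1.93 ± 0.31, edgeR adjusted p = 0.00661), and its relative in name, CG11912, 198, 438 and 193 CPM in controls and 56.1, 71.7 and 56.3 CPM in mutants (-2.17 ± 0.34, edgeR adjusted p = 0.00626). CG17192 measured 452, 616 and 329.7 CPM in controls and 68.5, 82.2 and 56.3 CPM in mutants (-2.75 ± 0.25, edgeR adjusted p = 0.000342). CG10182, CG14820 and CG2765 fell as well, with log2 fold changes of -2.76 ± 0.38, -1.23 ± 0.16 and -1.40 ± 0.21. In each of these genes the groups did not overlap, which held for 1282 tested genes with the mutant higher (12.7%) and 1302 with the control higher (12.9%).

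Some genes were close to silent in 1 group. hkb, a transcription factor gene of the embryonic gut ends, had 0, 0 and 0 counts in control and 54, 28 and 47 counts in the mutant. Against the limit that 0 counts allow, 3 over the control group, this was at least 43.6-fold higher in the mutant. rdo had 1, 2 and 3 counts in control and 100, 171 and 115 counts in the mutant, 65.2 times as many in sum after scaling for depth (95% interval from counting error 29.7 to 179). IntS12, a subunit of the Integrator complex, was expressed in both groups, with 2.94, 3.41 and 3.01 CPM in controls and 39.6, 23.2 and 31.1 CPM in mutants (3.33 ± 0.19, edgeR adjusted p = 2.61e-05). phr, a DNA photolyase gene, measured 0.844, 0.670 and 1.19 CPM in controls and 10.99, 9.58 and 8.35 CPM in mutants (3.41 ± 0.22, edgeR adjusted p = 4.55e-05). lectin-28C, a carbohydrate-binding protein gene, measured 8.43, 8.17 and 4.60 CPM in controls and 57.0, 54.1 and 46.0 CPM in mutants (2.89 ± 0.30, edgeR adjusted p = 0.000666). All 5 were stable, and IntS12, phr and lectin-28C were picked after their values were seen. CG34215 had 2, 9 and 0 counts in control and 3377, 1969 and 3597 counts in the mutant, 824 times (95% interval from counting error 460.5 to 1652) as many in sum after scaling for depth. Klp54D, a kinesin-like gene, had 1, 2 and 9 counts in control and 688, 592 and 589 counts in the mutant, a rise in sum of 158 times (95% interval from counting error 90.2 to 306). CG31089 measured 3.11, 3.11 and 1.22 CPM in controls and 73.0, 67.5 and 84.8 CPM in mutants (4.92 ± 0.35, edgeR adjusted p = 7.64e-05), and Lip3, a lipase gene, 3.36, 6.98 and 2.07 CPM in controls and 85.3, 44.0 and 58.9 CPM in mutants (3.92 ± 0.44, edgeR adjusted p = 0.00105). CG11893, CG34316 and CG31091 rose by 4.73 ± 0.63, 4.60 ± 0.77 and 3.89 ± 0.58 in log2. In each of these 7 genes, all stable, every mutant library lay above every control.

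Among the large decreases, CG31041 measured 139, 225 and 338 CPM in controls and 6.27, 6.24 and 9.99 CPM in mutants (-4.96 ± 0.48, edgeR adjusted p = 0.000479), and CG3348 51.2, 134 and 192 CPM in controls and 7.37, 11.6 and 7.34 CPM in mutants (-3.84 ± 0.48, edgeR adjusted p = 0.00191). The sterol-binding family gene Npc2e measured 312, 596 and 549 CPM in controls and 86.3, 109 and 62.4 CPM in mutants (-2.50 ± 0.40, edgeR adjusted p = 0.00677). In these 3 genes control replicate 1 was the lowest control, and no control fell to the mutant range. CG4991 measured 16.9, 22.1 and 20.96 CPM in controls and 1.54, 1.30 and 1.23 CPM in mutants (-3.88 ± 0.19, edgeR adjusted p = 1.1e-05) and its neighbour on the X, CG16700, 22.3, 19.5 and 16.9 CPM in controls and 2.85, 2.53 and 2.80 CPM in mutants (-2.84 ± 0.15, edgeR adjusted p = 1.36e-05). CG7912 measured 54.0, 50.7 and 34.6 CPM in controls and 5.85, 4.52 and 4.80 CPM in mutants (-3.20 ± 0.28, edgeR adjusted p = 0.000277), and CG5883 6.31, 5.23 and 16.6 CPM in controls and 0.387, 0.514 and 0.756 CPM in mutants (-4.08 ± 0.62, edgeR adjusted p = 0.00532). These 7 were stable.

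Called genes formed 15 runs of at least 3 neighbouring tested genes that moved the same way, 10 up and 5 down, with 57 genes in all. Runs of 6 were the Mal-A cluster, the run from meep to LysE, and on arm 2L the run elfless, rdo, Arr1, ninaD, CG31741 and CG15153. In this last run ninaD, a scavenger receptor for carotenoid uptake, was the abundant member, with 329, 263 and 46.6 CPM in controls and 930.4, 1513 and 1299 CPM in mutants (2.55 ± 0.58, edgeR adjusted p = 0.031, up to 0.0847); control replicate 3 was the lowest, and leaving out control replicate 2 or any 1 mutant library ended the call. CG31741 measured 2.05, 1.34 and 0.339 CPM in controls and 34.9, 18.8 and 37.8 CPM in mutants (4.62 ± 0.57, edgeR adjusted p = 0.00187) and was stable. A run of 5 on arm 3R held ry, CG11668, Hsc70-2, CG31157 and CG7966, of which the first 4 were stable. Hsc70-2, a chaperone gene of the Hsp70 family, measured 2.68, 3.06 and 3.07 CPM in controls and 8.57, 5.43 and 7.88 CPM in mutants (1.31 ± 0.22, edgeR adjusted p = 0.00765). Downward runs were MFS1, CG30265, CG12490 and CG9825 on arm 2R, CG5506, CR42548 and CG16775 on 3L, and on 3R the runs around CG31259, Desat1 and CG5810. MFS1 measured 30.3, 32.4 and 23.0 CPM in controls and 9.10, 4.98 and 6.86 CPM in mutants (-2.03 ± 0.26, edgeR adjusted p = 0.00255), and CG16775 401, 471 and 477 CPM in controls and 97.4, 94.9 and 72.1 CPM in mutants (-2.35 ± 0.20, edgeR adjusted p = 0.000277). Whether such runs are more frequent than the order of genes alone would give was not tested.

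Across families read from gene symbols, with at least 8 tested members each, Mal-A had the highest share called, 6 of 8 or 75%. alpha-Est followed with 3 of 10 (30%), Alp and Zip with 2 of 8 each (25%), serpins with 4 of 17 (23.5%), GstE with 3 of 13 (23.1%), and MFS and Muc with 2 of 9 each (22.2%). Over all tested genes the share was 6.67%.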

How the data were processed

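Poly(A) RNA of pooled female midguts was sequenced from both ends over 100 bases after a stranded library kit, per the labels. The deposited values are counts, whole numbers per gene and library that the authors did not normalize. TopHat2 2.0.11, HTSeq and the build dm3 are listed, with no order, in the submitters' processing notes. How HTSeq treated strand and overlapping genes is not given in the sources used here. Lines that name no gene (16.8 to 25.3% of all counts in a library), among them one for alignments to several places, were removed. Identifiers were matched to symbols in a reference of a later build, which was also used for chromosome arm and gene order but not for coordinates; 680 of 15682 had no symbol there and held 5.05 to 5.60% of gene counts. A total of 46 list members had no row and were not analysed here, and no sequence is shown.

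All 9 libraries were fitted with edgeR 4.0.16 in R 4.3.3: filterByExpr with a minimum count of 10 and a minimum total of 15, TMM scaling, a mean per group, a quasi-likelihood test of mutant minus control, and Benjamini-Hochberg adjustment over 10088 genes, called at 0.05. The SE is the absolute log2 fold change divided by the square root of F. The common biological coefficient of variation was 0.246. The script was tested on simulated data. Alternatives were DESeq2 1.42.0, other scalings, no filter, the 6 libraries alone, replicate blocks and each library left out. Tables were made with Python 3.11.15, pandas 2.3.3 and scipy 1.17.1. Counting intervals are exact at 95%, and 3 counts were taken as the limit that 0 counts allow; both cover counting error only.

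Control and mutant share replicate numbers. Deviations from the group means correlated at 0.204, 0.176 and 0.170 for libraries of the same number and at -0.163 to -0.004 for the others, so that every same-number correlation exceeded 0.1, the limit set for taking the numbers as pairs. By that limit the numbers count as pairs, but the described fit was set without a replicate block, because the study states no design. With the block in the 6 libraries, 227 genes rose and 152 fell, against 369 and 304. Blocked counts stand beside only some lists and differ for others too. Cytochrome P450 genes gave 9 that rose and 2 that fell with it, and glutathione transferases 3 and 2. Of the tracheal markers 2 fell with it, and of the haemocyte markers 4 instead of 1. Stable calls passed with the block as well. Nothing in the labels says what a number marks.

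The comparison and 64 gene lists were chosen with earlier results of these data known; 4 further lists (pentose phosphate and NADPH, GABA, ketone and fat oxidation, serine to vitamin B6) were written after the values had been seen. Genes were named by rule: sex determination, sex-biased and dosage genes; the 12 stable genes in each direction with the largest change at 5 CPM or more, and the 12 of highest level; up to 4 stable members of a list, or failing these up to 2 called or 2 abundant members; neighbouring runs of at least 3; and symbol families of at least 8 tested genes with at least 20% called. The text describes a part of the genes that the rule selects. Other genes are described as illustrations of a list or were picked after their values were seen.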

Additional observations from a re-analysis of the deposited data

How the results depend on the processing

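The counts of genes that rose and fell, 369 and 304, stayed within 1.5 times with other scalings (383 and 300 with DESeq2's size factors in edgeR, 408 and 295 with library totals) and without the filter (386 and 319). DESeq2 gave 701 and 656. Fits of the 6 libraries alone gave 239 and 177, with the replicate block 227 and 152; the replicate block over 9 libraries gave 406 and 353. Leaving out 1 library gave 200 to 406 that rose and 114 to 352 that fell, with 201 and 128, 200 and 136, and 236 and 114 without mutant replicate 1, 2 and 3. Of the genes called in the described fit, 199 that rose and 128 that fell were called with the replicate block in the 6 libraries. The cause of these differences was not tested.

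Of 3211 values of named genes under the alternatives, 2880 kept direction and side of the threshold, 297 lost the call, 6 gained it and 28 changed sign. The 28 belong to 18 genes that were not called, whose log2 fold changes with 1 library left out had these lowest and highest values: Acp53Ea -0.15 to 1.62, Acp63F -0.22 to 0.90, His3.3B -0.11 to 0.13, Mettl3 -0.11 to 0.10, Rpn1 -0.16 to 0.027, Rpn2 -0.093 to 0.060, Ssk -0.41 to 0.025, Stat92E -0.11 to 0.050, Sxl -0.11 to 0.22, alphaTry -0.18 to 0.21, betaTry -0.21 to 0.27, fru -0.23 to 0.23, her -0.0027 to 0.27, mesh -0.61 to 0.12, msl-3 -0.018 to 0.17, nito -0.14 to 0.012, nub -0.33 to 0.066, tra2 -0.022 to 0.20. Of 2176 counts of list members, 434 moved by more than 1.5 times.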
